A study of Caenorhabditis elegans with 2 samples.

Results

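GMEB-2, which belongs to the family of glucocorticoid modulatory element binding (GMEB) proteins known from vertebrates, gave some of its strongest promoter peaks at 5 protein-coding genes of Caenorhabditis elegans: K12H4.5, atx-2, ears-2, T13C5.6 and M01F1.9. The genes were chosen by their signal. Each had a summit among the 25 strongest peaks of the thresholded list that fell in its promoter window, here the 1000 bp before and the 500 bp after the annotated 5′ end. They are 5 of the 444 nuclear protein-coding genes with such a summit, out of 19973 in all (2.22%). Their high signal is therefore how they were picked and not a result, and no test was made on it.

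Bound DNA was recovered with an anti-GFP antibody and sequenced (ChIP-seq). The material was whole late embryos of strain OP622, male and female pooled, 5 h after synchronization by egg bleaching. The strain carried the unc-119 allele tm4063 and the integrated transgene wgIs622, which makes GMEB-2 with a GFP-FLAG tag at its C-terminus. The 2 biological replicates shared this strain, stage and treatment, so there was 1 group and no comparison between conditions. Both came from a single transgenic line, and the promoter of the transgene is not given in the sources used here. Whole embryos mix all embryonic tissues, and peak lists hold no expression values with which to check tissue markers.

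A ChIP-seq peak marks DNA that was recovered with the tagged protein, and its summit is the base of highest enrichment. In C. elegans the first bases of many messages are removed by trans-splicing, so an annotated 5′ end often lies downstream of where transcription starts. RNA polymerase III reads many small RNA genes from promoter elements inside the gene, called the A box and the B box, which are bound by the factor TFIIIC. Of the 5 genes, atx-2 encodes the relative of ataxin-2, an RNA-binding regulator of translation. The ears-2 product is annotated as the mitochondrial glutamyl-tRNA synthetase, which loads glutamate onto transfer RNA. T13C5.6 encodes a protein with a phosphatidic acid phosphatase type 2/haloperoxidase domain, M01F1.9 one with an arrestin N domain, and K12H4.5 a protein annotated as uncharacterized.

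The reference sequence around each summit is shown because later comparisons turn on its words and repeats. Sequences are from the RefSeq genome (assembly WBcel235, which is ce11) and read 5′ to 3′ on the strand of the gene. Capitals mark the words CGCAAG and ACGCGC or their reverse complements in the first 3 genes. In T13C5.6 they mark matches to the B box and the A box on the opposite strand, and in M01F1.9 the arms of the longest perfect inverted repeat. Each window is the summit with 100 bases to either side, except that ears-2 is shown only for the 91 bases between its 5′ end and that of its divergent neighbour.
K12H4.5, chrIII:8043865-8044065, plus strand: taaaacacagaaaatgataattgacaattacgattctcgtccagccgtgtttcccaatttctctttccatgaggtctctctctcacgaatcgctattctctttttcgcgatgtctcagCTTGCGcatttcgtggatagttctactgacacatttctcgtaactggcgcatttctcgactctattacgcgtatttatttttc
atx-2, chrIII:10461225-10461425, plus strand: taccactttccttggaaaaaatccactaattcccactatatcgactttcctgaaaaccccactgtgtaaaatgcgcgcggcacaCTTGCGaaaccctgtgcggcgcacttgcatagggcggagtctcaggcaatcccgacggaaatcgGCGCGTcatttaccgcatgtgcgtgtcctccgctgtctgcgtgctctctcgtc
ears-2, chrIV:390469-390559, minus strand: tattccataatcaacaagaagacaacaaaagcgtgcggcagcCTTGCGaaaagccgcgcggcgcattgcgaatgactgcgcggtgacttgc
T13C5.6, chrX:6207759-6207959, minus strand: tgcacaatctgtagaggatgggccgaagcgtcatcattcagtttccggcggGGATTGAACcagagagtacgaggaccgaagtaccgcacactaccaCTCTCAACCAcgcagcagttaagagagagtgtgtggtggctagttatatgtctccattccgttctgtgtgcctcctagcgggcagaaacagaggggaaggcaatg
M01F1.9, chrIII:3499925-3500125, minus strand: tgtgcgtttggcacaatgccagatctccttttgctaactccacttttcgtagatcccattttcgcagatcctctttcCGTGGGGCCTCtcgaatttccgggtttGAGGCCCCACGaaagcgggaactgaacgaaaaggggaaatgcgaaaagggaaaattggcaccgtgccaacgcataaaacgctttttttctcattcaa

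Signal values are the authors' own value for each peak and have a separate scale in each list, so lists are compared by rank, with rank 1 for the strongest peak. The thresholded list was made with the irreproducible discovery rate (IDR), which orders peaks by their agreement between replicates, and held 634 peaks with signals of 91.8 to 1083 and a median of 135. The relaxed lists of the joint data, of replicate 1 and of replicate 2 held 30000 peaks each. Read counts were not among the values used, so the depth behind each peak is unknown and no counting interval is given.

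K12H4.5 had the strongest peak of the 5. Its gene lies on chrIII:8044487-8044780 on the plus strand and is 294 bp long, with no annotated 5′ untranslated bases. The IDR peak covered chrIII:8043824-8044109, and its summit at position 8043965 lay 522 bp upstream of the 5′ end, in intergenic sequence. Signal was 716 in the IDR list, rank 6 and 5.32 times the list median. Replicate 1 gave 320, rank 3, with the summit 540 bp upstream, and replicate 2 gave 397, rank 7, with the summit 523 bp upstream. The replicates thus placed the summit 17 bp apart. The only other summit in the promoter window was in replicate 1, 397 bp downstream of the 5′ end, at signal 18.4 and rank 13560. The nearest 5′ end on the other side was that of K12H4.6, another uncharacterized gene on the opposite strand, 1090 bp from the summit. No noncoding gene or pseudogene was annotated within 1000 bp, and the next IDR summit was 62741 bp away.

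The atx-2 peak lay almost on the 5′ end. The gene covers chrIII:10461389-10468051 on the plus strand, and the peak covered chrIII:10461174-10461456. Its summit was 64 bp upstream, with a signal of 516, rank 12. Replicate 1 had signal 211 and rank 13 at 68 bp upstream, and replicate 2 had signal 310 and rank 10 at 64 bp upstream. The annotation holds 4 transcript 5′ ends of atx-2, and the other 3 start 239, 324 and 3067 bp farther into the gene. The summit was thus nearest to the outermost of them.

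A weaker summit stood farther upstream of atx-2. In the joint list it lay 624 bp upstream with a signal of 82.7, rank 788. Replicate 2 ranked it 764 and replicate 1 ranked it 6893, although replicate 2 had the summit 597 bp upstream and replicate 1 had it 598 bp upstream. This stretch is shared with ecps-1, whose product has the N-terminal domain of the proteasome component Ecm29. The 5′ ends of ecps-1 and atx-2 are 838 bp apart on opposite strands, and the main summit lay 774 bp upstream of ecps-1. The weaker summit was nearer to the 5′ end of ecps-1 than to that of atx-2.

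ears-2 had its summit between a closely spaced divergent pair. The gene covers chrIV:388686-390468 on the minus strand, and its peak covered chrIV:390373-390635 with the summit 41 bp upstream. Signal was 455 in the IDR list, rank 18. Replicate 1 had signal 175 and rank 23 at 29 bp upstream, and replicate 2 had signal 282 and rank 19 at 43 bp upstream. The neighbour uncp-18 encodes a syntaxin-binding protein, and its 5′ end is 92 bp away on the opposite strand. The summit was 51 bp upstream of uncp-18, so a peak of this width cannot be given to either gene. A second, weak summit 703 bp upstream of ears-2 had rank 8038 in the joint list, 18719 in replicate 1 and 9504 in replicate 2. It lay inside uncp-18.

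T13C5.6 had its summit inside a noncoding gene. T13C5.6 covers chrX:6206362-6207687 on the minus strand, and the peak covered chrX:6207708-6208020 with the summit 172 bp upstream. Signal was 492 in the IDR list, rank 14. Replicate 1 had signal 212 and rank 12 at 174 bp upstream, and replicate 2 had signal 276 and rank 23 at 168 bp upstream. No second summit was listed in the promoter window in any of the 4 lists. C14F11.14, an unclassified noncoding RNA gene on the plus strand at chrX:6207835-6207981, begins 24 bp before the summit. Binding at C14F11.14 and binding at the T13C5.6 promoter cannot be told apart here. The summit lay 704 bp past the 5′ end of C14F11.7, a gene with an EB domain, and outside its promoter window.

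M01F1.9 had its summit near the outer edge of the promoter window. The gene covers chrIII:3493814-3499057 on the minus strand, and the peak covered chrIII:3499914-3500155 with the summit 968 bp upstream. Signal was 435, rank 25. Replicate 1 had signal 150 and rank 39 at 990 bp upstream, and replicate 2 had signal 281 and rank 20 at 968 bp upstream. The summit lay in intron 4 of M01F1.8, an intron of 1170 bp in the upstream gene on the same strand. Products of M01F1.8 are annotated as a lipoprotein and as a VWFD domain-containing protein. The summit was 2524 bp inside M01F1.8, counted from the 5′ end of that gene. Binding in this intron and binding at the M01F1.9 promoter cannot be told apart here. In the joint list a weaker summit lay 344 bp downstream of the 5′ end (rank 9627). Replicate 1 had weaker summits 413 and 191 bp downstream (ranks 7890 and 28842). The weaker summit of replicate 2 was 123 bp upstream instead (rank 14590).

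**Figure D1:**
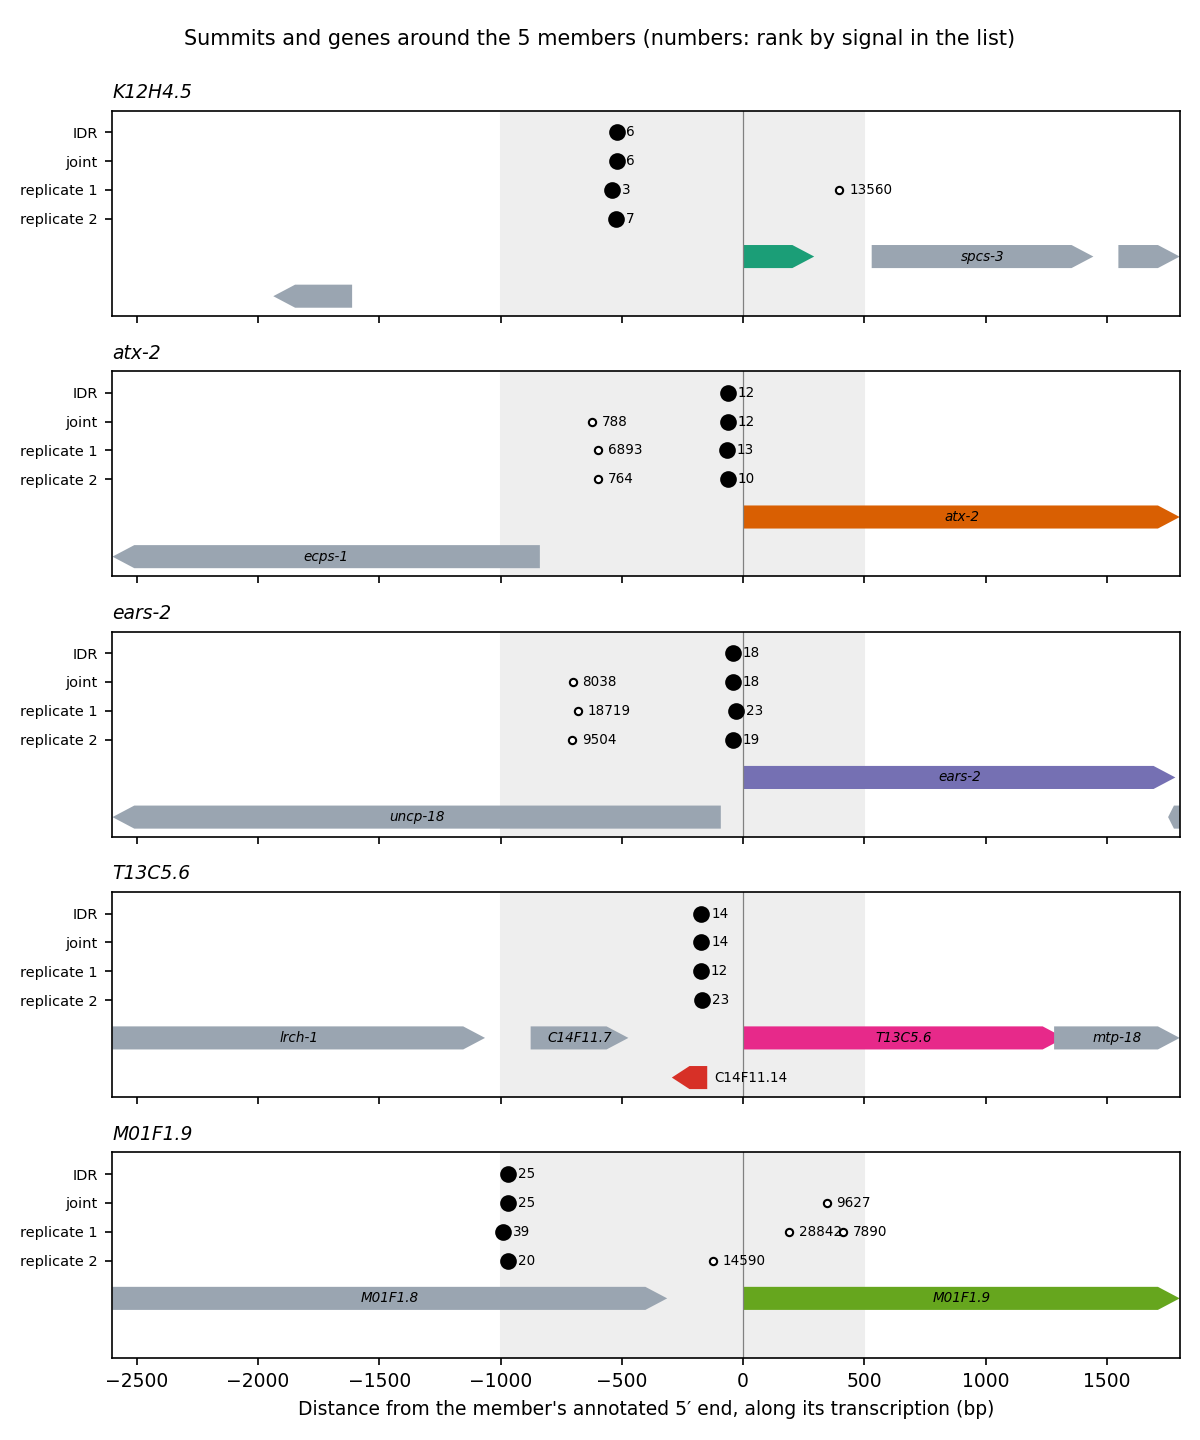
Summits (circles, one row per list) and gene bodies (arrows, above for genes on the member's strand and below for the opposite strand) by distance in bp from the annotated 5′ end of each of the 5 genes. Numbers are ranks by signal, filled circles mark ranks of 100 or better, grey shading is the promoter window, and red marks C14F11.14. Gene bodies are cut at the panel edges. The strong summits of the 4 lists stack within each panel, at 29 to 990 bp upstream, while open circles mark weaker summits elsewhere in the window.

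Across the 5 genes the median summit offset was 172 bp upstream, with a range of 41 to 968 bp. The 5 strong summits were upstream of the 5′ end, as were 282 of the 316 other IDR promoter peaks (89.2%) relative to their nearest one. Weak summits in the relaxed lists carry little information about a gene, since 40.2% of all protein-coding genes had a summit of the joint relaxed list in their promoter window. The share was 41.2% in replicate 1 and 41% in replicate 2.

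Both replicates placed each of the 5 genes high. When each replicate's list was limited to its 634 strongest peaks, 2.02% of all protein-coding genes had a summit in the window in replicate 1 and 2.19% in replicate 2, and the 5 genes were among them in both. Since the IDR list was built from these replicates, that agreement is part of the choice. Replicate summits lay 4 to 22 bp apart at the 5 genes, with a median of 14 bp. The median was 24 bp at the 315 other promoter peaks with a summit of both replicates within 200 bp. Their middle range, from the lower to the upper quartile, was 8.5 to 45 bp. The gaps at atx-2 (4 bp) and T13C5.6 (6 bp) were below that range, and those at the other 3 genes lay within it.

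**Figure D2:**
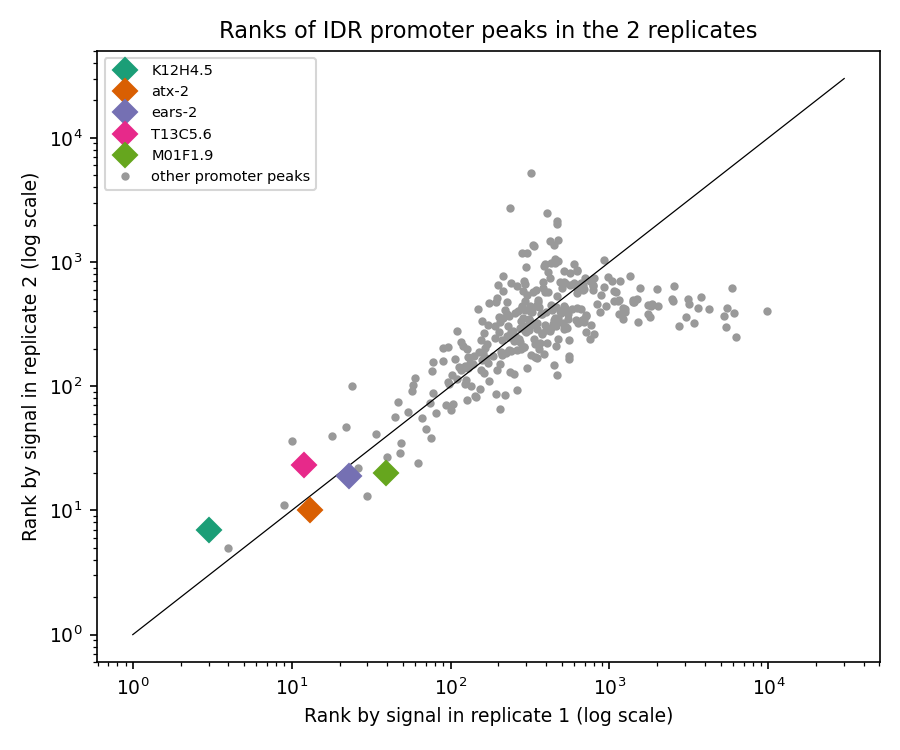
Rank by signal of IDR promoter peaks in replicate 1 (x, log scale) and replicate 2 (y, log scale). Diamonds are the 5 genes, at ranks 3 to 39 in replicate 1 and 7 to 23 in replicate 2, grey points are the 315 other promoter peaks with a summit in both replicates, and the line marks equal ranks.

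Peak order around the 5 genes shows how close the choice was. Among promoter peaks with no tRNA or snoRNA gene within 200 bp of the summit, K12H4.5, atx-2, T13C5.6 and ears-2 held places 1 to 4, and M01F1.9 held place 6. Place 5 was rpl-3, a ribosomal protein gene that is not one of the 5, with rank 24 and a signal of 436 against 435 at M01F1.9. The next was the divergent pair mlcd-1 and idhg-1, at rank 43 and signal 385. Stronger than some of the 5, but close to snoRNA or tRNA genes, were the peaks at sre-23 (rank 4), T02E1.2 (rank 10), col-85 (rank 15), twk-5 (rank 19) and the gcy-33 and cpr-9 pair (rank 20). No tRNA or snoRNA gene lay within 200 bp of the summit at the 5 genes, against 61 of the 316 other promoter peaks (19.3%). Since the stronger promoter peaks close to such genes were not among the 5, this may follow from the choice and is no result. The authors' −log10 q value was 2.64 at each of the 5, the highest in the list, and 218 of the 634 peaks had it, so it does not order them.

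**Figure D3:**
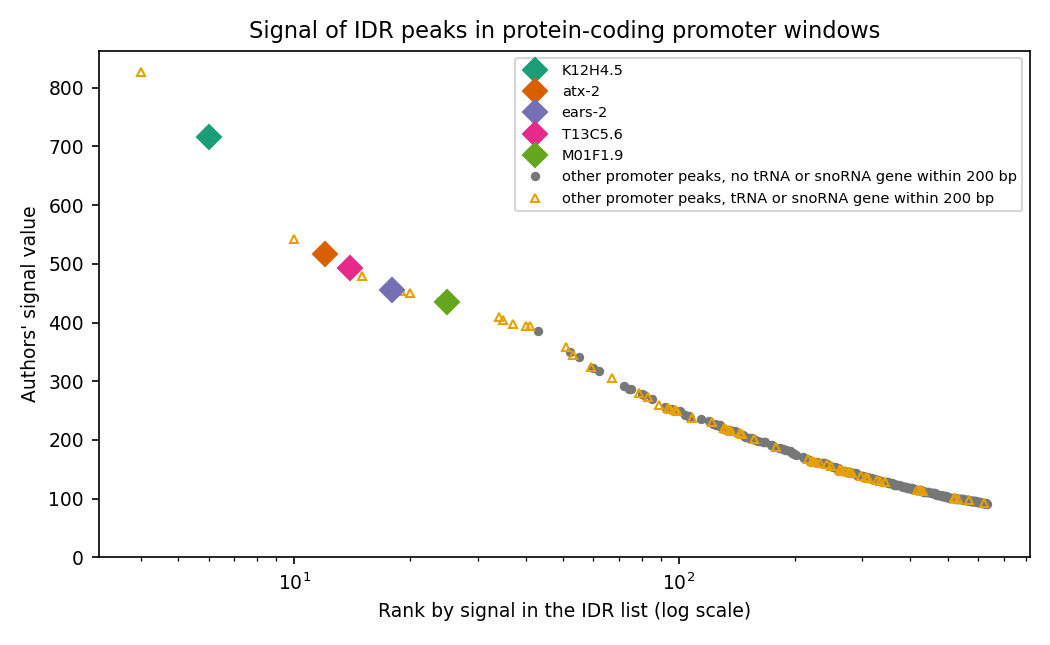
Authors' signal value (y) of the IDR peaks in promoter windows against their rank in the IDR list (x, log scale). Diamonds are the 5 genes, at ranks 6, 12, 14, 18 and 25, and triangles are peaks within 200 bp of a tRNA or snoRNA gene, which hold every other place above rank 43 except that of rpl-3.

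Some features of the 5 loci were not used to choose them. The summit lay in promoter windows of both strands at 2 of the 5, atx-2 with ecps-1 and ears-2 with uncp-18. The same held for 105 of the 316 other promoter peaks (33.2%). Among the 255 of these that, like the 5, had no tRNA or snoRNA gene within 200 bp, the count was 99 (38.8%). A noncoding gene other than a piRNA gene lay within 200 bp at 1 of the 5, T13C5.6, against 95 of 316 (30.1%). Among the same 255 peaks the count was 34 (13.3%). K12H4.5, atx-2 and M01F1.9 are on chromosome III, as were 66 of the 316 (20.9%) and 60 of the 255 (23.5%). This was not particular to the 5 among strong promoter peaks without a tRNA or snoRNA gene. The rpl-3 peak (rank 24), the mlcd-1 and idhg-1 peak (rank 43) and those at ranks 55, 60, 62 and 72 were on chromosome III too. The K05C4.2 peak (rank 52) was on chromosome I. With 5 genes these shares are counts and not estimates. Peak width was 242 to 313 bp at the 5 genes, below the 376 bp that 251 of the 316 others had (79.4%). The promoter peaks of similar rank in the signal plot, such as rpl-3 at 243 bp and mlcd-1 and idhg-1 at 235 bp, were narrow too.

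The GC content within 100 bases of the summit was 54.2% at atx-2, 53.2% at T13C5.6, 48.3% at M01F1.9, 44.8% at ears-2 and 40.8% at K12H4.5. Other promoter peaks had a median of 44.3%, with quartiles of 38.8% and 47.9%. Of the 5, 4 were above that median and 3 above the upper quartile, while K12H4.5, the strongest, was below the median. A GC content of at least 50% was found at 2 of the 5 and at 51 of the 316 others (16.1%). Other promoter peaks with no tRNA or snoRNA gene within 200 bp had a median of 42.8%, with quartiles of 38.3% and 46.8%. The windows were nearly free of exact repeats. Every 36-base word in them occurred once in the nuclear genome at 4 of the 5 genes, and 95.2% of the words did at T13C5.6. Of the other windows, 244 of 316 (77.2%) were made of unique words alone. Among the 255 that, like the 5, had no tRNA or snoRNA gene within 200 bp, 228 were (89.4%).

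**Figure D4:**
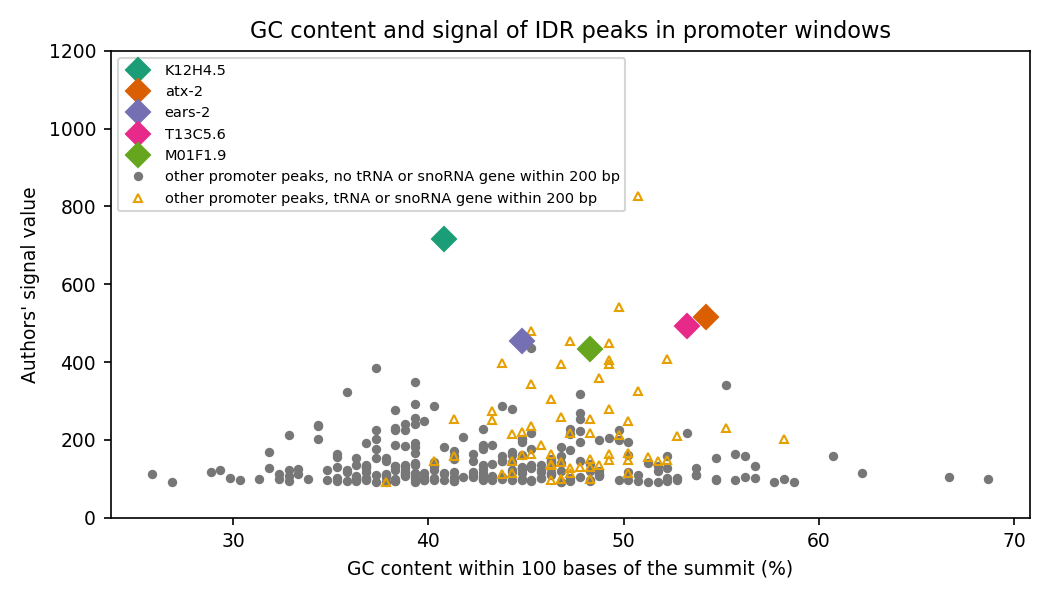
Authors' signal (y) against the GC content within 100 bases of the summit (x, %), for IDR promoter peaks. Diamonds are the 5 genes, which span 40.8% to 54.2%, grey points and triangles are the other promoter peaks without and with a tRNA or snoRNA gene within 200 bp.

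Short words did not unite the 5 windows. No word of 6 bases, on either strand, occurred in all 5, and 5 words occurred in 4 of them. T13C5.6 held none of these 5, and the other 4 windows held each of them. GAAAAA was in 62% of the windows at the other promoter peaks and in 67.7% of windows of the same length just upstream of all protein-coding genes. The shares were 39.6% and 50.9% for AAAATG, 23.7% and 17.7% for AAATGC, 18.7% and 7.46% for AATGCG, and 25% and 13% for GCGAAA. These 5 words were picked from the windows themselves, so their counts at the 5 genes have no weight as a test.

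CGCAAG, read as CTTGCG on the gene's strand, was found at K12H4.5, atx-2 and ears-2. It began 18 bp downstream of the summit at K12H4.5, 16 bp upstream at atx-2 and 8 bp upstream at ears-2. The word was in 21.2% of the other promoter peaks and 3.17% of all promoters. ACGCGC was found at atx-2 and ears-2, starting 48 and 47 bp downstream of the summit. It was in 23.7% of the other promoter peaks and 4.34% of all promoters. ACGCGC was taken from an earlier look at the same peaks, so its shares have no weight as a test. At ears-2 this word lies beyond the annotated 5′ end and so is not in the printed sequence. GCGCAC was found at atx-2 alone of the 5, 2 bp downstream of the summit, against 25.3% of the other promoter peaks and 4.08% of all promoters. No test was made on CGCAAG or GCGCAC. The longest run of bases shared by 2 of the windows was 9, CTTGCGAAA for atx-2 and ears-2 and TGCGAAAAG for ears-2 and M01F1.9.

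The letters of 4 further words searched were not in the 5 windows. TACGTA, a word bound by vertebrate GMEB proteins, was in 0.949% of the other promoter peaks and 2.12% of all promoters, and its core ACGT in 31% and 38%. For TATAAA, the TATA word, the shares were 15.5% and 30.5%, and for GATAAG, the GATA word, 4.11% and 12.6%. The B box, searched on both strands as GTTCGANNC, GATCGANNC, GTTCAANNC or GATCAANNC, matched at T13C5.6 and at no other of the 5, against 21.2% of the other promoter peaks and 5.84% of all promoters. The A box matched at ears-2, T13C5.6 and M01F1.9, against 31% of the other promoter peaks and 16.4% of all promoters. The 316 other promoter peaks include 61 within 200 bp of a tRNA or snoRNA gene, whereas the 5 genes had none there. Their word and box shares are therefore not a like background, and shares without those 61 are not given here.

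At T13C5.6 both box matches were on the strand of C14F11.14. The A box match overlapped the summit and the B box match followed it by 36 bases in the direction of that gene. The window resembled 3 other stretches, which were also on chromosome X and in noncoding genes: ZK816.8/ZK816.9 at 90.3% identity over 113 aligned bases, T22B2.12/T22B2.9 at 89% over 109, and K02D3.5 at 89.8% over 108. The segments from the A box to the B box, both in capitals, show how alike these loci are.
C14F11.14, chrX:6207854-6207908, plus strand: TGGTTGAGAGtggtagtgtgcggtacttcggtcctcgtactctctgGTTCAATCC
ZK816.8/ZK816.9, chrX:3348051-3348103, plus strand: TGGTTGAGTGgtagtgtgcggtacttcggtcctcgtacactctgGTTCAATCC
T22B2.12/T22B2.9, chrX:3914484-3914534, minus strand: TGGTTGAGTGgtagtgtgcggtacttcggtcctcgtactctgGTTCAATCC
K02D3.5, chrX:13697693-13697745, plus strand: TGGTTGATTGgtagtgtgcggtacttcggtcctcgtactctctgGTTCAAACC

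The 4 related loci differed in the lists. C14F11.14 had rank 14 in the IDR list. T22B2.12/T22B2.9 had rank 384, with rank 1380 in replicate 1 and 299 in replicate 2. ZK816.8/ZK816.9 had rank 444, with 431 in replicate 1 and 447 in replicate 2. K02D3.5 had no summit within 200 bp in the IDR, joint or replicate lists, although it too held both box matches, with the B box GTTCAAACC where the other loci had GTTCAATCC. The spacing between the boxes was 36, 34, 32 and 34 bases in the printed order. Whether any of these letters bears on the signal was not tested.

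The ears-2 window held a short tandem pattern in which TTGC recurred after 22 bases on the gene's strand. TTGC occurred 5 times on either strand, against a median of 3 in the other promoter windows, 59 of which (of 316) had as many. A stretch of the window resembled 18 other places in the nuclear genome at 80% identity or more. The single one of them with an IDR peak was on chromosome II. That peak had rank 255, with its summit 497 bp upstream of unc-85, a histone chaperone gene. The stretch aligned over 79 bases at 83.5% identity. At that peak none of the 36-base words around the summit was unique in the nuclear genome (0%), whereas all were at ears-2. Both are shown as far as the third TTGC, with each TTGC in capitals.
ears-2, chrIV:390469-390531, minus strand: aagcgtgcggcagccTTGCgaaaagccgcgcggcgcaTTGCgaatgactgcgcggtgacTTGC
stretch on chromosome II, chrII:4701660-4701722, plus strand: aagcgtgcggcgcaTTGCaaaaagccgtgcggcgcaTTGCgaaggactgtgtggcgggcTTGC
The stretch on chromosome II had its nearest end 88 bp from the IDR summit, whereas the ears-2 stretch held the summit itself.

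M01F1.9 lay in a repeated element. Its window contained a perfect inverted repeat with arms of 11 bases and 16 bases between them, from 23 bp before to 14 bp after the summit. Of the 316 other promoter windows 13 had arms as long, and their median was 7. The window is part of an element at chrIII:3499768-3500125 and resembled 58 other stretches of the nuclear genome, which had a median length of 354 bp and of which 33 overlapped protein-coding genes. On chromosome IV one of these lay upstream of rps-24, a ribosomal protein gene. Its IDR peak, at rank 396 with the summit 567 bp upstream of rps-24, was the one nearest to ears-2, 5189 bp away. The longest alignment of that stretch to the window covered 89 columns, with 74 identical bases, shown here in capitals. Neither printed part held its summit, at position 3500025 on chromosome III and 385320 on chromosome IV.
M01F1.9, chrIII:3499925-3500010, minus strand: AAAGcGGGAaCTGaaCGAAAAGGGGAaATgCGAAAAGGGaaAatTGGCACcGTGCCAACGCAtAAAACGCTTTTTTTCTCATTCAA
stretch upstream of rps-24, chrIV:385418-385502, minus strand: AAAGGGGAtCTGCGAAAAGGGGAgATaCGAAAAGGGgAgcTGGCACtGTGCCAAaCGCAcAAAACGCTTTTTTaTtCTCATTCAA

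Peaks at the similar stretches were more frequent than along the genome. Of the 58 stretches like M01F1.9, 42 (72.4%) had a summit of the joint relaxed list within 200 bp of their middle, and 8 (13.8%) an IDR peak. For comparison, 11.6% of nuclear bases lay within 200 bp of a joint summit and 0.251% within 200 bp of an IDR summit. Ranks of the 8 IDR peaks ran from 195 to 620, against rank 25 at M01F1.9, which was chosen for its rank. Not all had both replicates within 200 bp of the stretch's middle. Y32B12B.4 (rank 386) had rank 6264 in replicate 1 and no replicate 2 summit there, although replicate 2 had rank 250 near the IDR summit. The ttll-4 peak (rank 620) had no replicate 1 summit there and rank 483 in replicate 2. Of the 8, 7 were in promoter windows, as were 321 of all 634 IDR peaks. Unique 36-base words made up 0% to 83.1% of the windows at these 8 peaks, with a median of 34.6%, against 100% at M01F1.9. The strongest of the 8 was at atad-3 and nrde-2 on chromosome II, at signal 181 and rank 195, and the next at eel-1, a ubiquitin ligase gene, at signal 177 and rank 198. The count depends on how a peak is matched to a stretch. When a peak had to overlap the stretch instead, 43 of the 58 had a joint peak and 9 an IDR peak, with best ranks of 140 to 578. The strongest was then a peak at npp-6 and spd-5, with a signal of 215, rank 140, which overlaps the end of a longer stretch. Of the 18 stretches like ears-2, 9 (50%) had a joint summit and 1 (5.56%) an IDR peak. K12H4.5 and atx-2 had no similar stretch. Repeat copies share ancestry and are not independent, and how reads with several matches were handled is not given in the sources used here. What that did to the ranks was not tested.

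**Figure D5:**
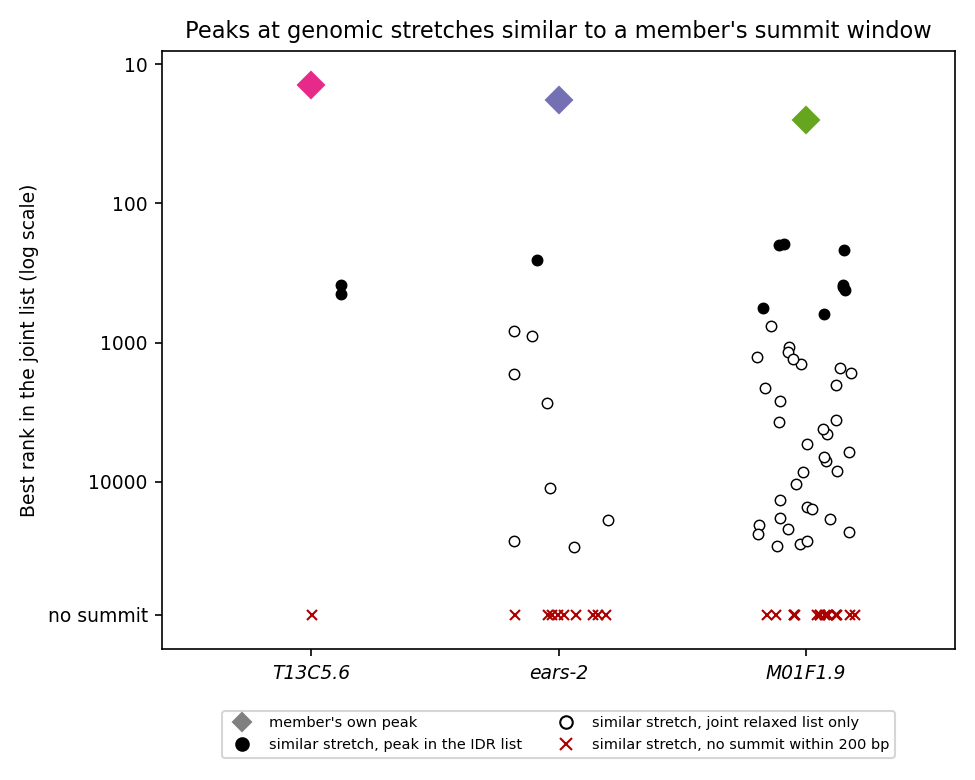
Best rank in the joint list (y, log scale, strongest at the top) of peaks within 200 bp of the middle of stretches similar to the windows of T13C5.6 (3 stretches), ears-2 (18) and M01F1.9 (58). Diamonds are the genes' own peaks at ranks 14, 18 and 25, filled circles are IDR peaks, open circles are peaks of the joint relaxed list alone, and crosses on the bottom row are stretches with no summit.

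Genes of related function were read in the same way. Of 36 aminoacyl-tRNA synthetase genes listed, the enzymes that load transfer RNAs, 32 were found by name, and ears-2 was the single one with an IDR summit in its promoter window (3.12%, against 2.22% of all protein-coding genes). In the joint relaxed list 19 of the 32 had a summit (59.4%, against 40.2%). Without ears-2, which was chosen for its signal, 0 of 31 had an IDR summit and 18 a joint summit. The strongest besides ears-2 were kars-1 at signal 70.1 and rank 1365, fars-3 at 68.6 and rank 1476, and dars-1 at 62 and rank 2164. The cytosolic glutamyl-tRNA synthetase gene ears-1 had rank 9574. Thus ears-2 stood far above the other synthetase genes, but it was chosen for its signal. Its peak is also shared with uncp-18, with the summit 41 bp upstream of ears-2 and 51 bp upstream of uncp-18. It cannot be given to either gene.

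Of 20 genes for RNA-binding proteins of RNA granules and translational control, 2 had an IDR summit (10%, against 2.22% of all protein-coding genes). One was atx-2, which was chosen for its signal, so 1 of the other 19 had such a summit. This was ifet-1, the worm relative of the eIF4E transporter, with signal 151 and rank 260 at 498 bp upstream. That peak is shared with the divergent ribosomal protein gene rps-1, whose 5′ end was nearer at 270 bp, and a noncoding gene lay within 200 bp of its summit. In the joint list 15 of the 20 had a summit (75%, against 40.2%), and 14 of the 19 without atx-2. Just outside the IDR list stood the poly(A)-binding protein gene pab-2, at signal 88.7 and rank 679, and szy-20, which encodes an RNA-binding protein, at 79.7 and rank 883. The paralog pab-1 had rank 3435.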

How the data were processed

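Peak lists on ce11 were read as the authors deposited them: an IDR list, a relaxed list of the joint data and a relaxed list for each replicate. Column 7 is the signal value that the authors deposited for each peak. Column 9 is the −log10 q value that the authors deposited, used only to note ties. Peak calling was done for each replicate and for the joint data, against a control alignment, per the labels and file listing. No aligner, peak caller or IDR cut-off is named in the sources used here. The ce10 lists were not used. Summits were computed in 1-based positions, with genes from Ensembl release 115 and products and sequence from RefSeq, both on WBcel235.

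The members and lists were chosen with earlier results of these data known. The text names the 5 genes, protein-coding genes holding or flanking their summits, noncoding genes within 1000 bp, peaks next in rank, and 2 fixed lists. Genes at similar stretches were named after their values were seen. Words were searched within 100 bases of each summit, and in windows of that length ending at the 5′ end of all 19973 genes. Similar stretches were found with BLAST 2.17.0 (e-value 0.001, word size 11, at least 80% identity over 50 bases, joined within 500 bp), a search added after seeing the data. Position and word code was checked on simulated data. Work was done in Python 3.11.15 with pandas 2.3.3 and numpy 2.4.6. No p-value was computed, since the genes were selected on signal and there was 1 group. Shares of all genes are given as background.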

Additional observations from a re-analysis of the deposited data

How the results depend on the processing

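Of 54 alternatives, 46 left the value within 1.5 times of the reported one, or within the spread between replicates for the offset. When the promoter window was cut to 500 bp before and after the 5′ end, 3 of the 5 genes kept a summit (K12H4.5 and M01F1.9 lay outside) and 1 had a summit in windows of both strands. ACGCGC was at 0 of the 5 within 50 bp of the summit, since it began 47 and 48 bp away and ran past that limit. The lowest rank of the 5 was 7 without peaks at tRNA or snoRNA genes and 1 by −log10 q, where the genes are tied. Without 1 of the replicates it was 23 to 39. In the IDR list in place of the joint list, 1 stretch like ears-2 and 8 like M01F1.9 had a peak. Leaving out either replicate gave 5 genes with a summit in the window, 2 on both strands, 1 with a noncoding gene, 2 with ACGCGC and 1 with a B box, a median offset of -174 to -168 bp, and 8 to 9, 2 and 31 to 37 stretches with a relaxed summit for ears-2, T13C5.6 and M01F1.9. The alternatives for similar stretches were chosen after seeing the data. No paired analysis was possible because the study has 1 group and no test. Read depth is unknown, so the precision of a single signal value cannot be given, and no untagged strain was analysed here.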
